A study of Homo sapiens with 12 samples.

Results

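The response of ACSL5 knockdown cells to palmitic acid was measured in 6 of the 12 libraries of the study: 3 of LM3 cells with a short hairpin RNA against ACSL5 (shACSL5, called untreated here) and 3 of the same cells given palmitic acid (shACSL5_PA, called treated). They were chosen by their labels alone, and all genes were examined. LM3 is a lung-metastatic derivative of MDA-MB-231, an established human line of triple-negative, mesenchymal breast cancer. Both groups carry the hairpin, so the comparison holds the hairpin constant, though the residual ACSL5 message was somewhat higher with palmitic acid. The 3 shControl and 3 shControl_PA libraries of LM3 cells with a control hairpin served to ask whether the response differed with ACSL5 present. Neither how much palmitic acid was given nor for how long is stated in the labels, nor what carried it, nor how many hairpins or clones stand behind the knockdown, and an effect of a carrier cannot be told apart from that of the fatty acid. Whether the 3 libraries of a group came from separate cultures is also not stated, so the p-values describe the spread among libraries, which could be technical in origin.

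Palmitic acid is the most common saturated fatty acid of the diet and of blood. Inside a cell it is joined to coenzyme A by an acyl-CoA synthetase, one of which is ACSL5, an enzyme of the outer mitochondrial membrane and the endoplasmic reticulum (ER), and only then can it be burned, stored in triglyceride or built into membranes and ceramides. Free fatty acids also bind the PPAR nuclear receptors, which switch on genes for their own disposal, and an excess of saturated fatty acid is known to strain the ER membrane and to set off inflammatory signalling, a state called lipotoxicity.

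Library totals ran from 16788694 to 21814751 counts in the untreated and from 18875565 to 20623983 in the treated group, deep enough to test 14199 genes. Palmitic acid changed 2893 of them (20.4%), of which 1455 rose (10.2%) and 1438 fell (10.1%), at an adjusted p under 0.05 in edgeR's quasi-likelihood test. Most changes were small: the median absolute change of the called genes was 0.279 on the log2 scale, 80% of all genes lay between -0.34 and 0.29, and 132 called genes changed at least 2-fold (53 up, 79 down). For 2804 of the called genes the 3 treated libraries all lay on one side of the 3 untreated ones, against 35.9% of all tested genes, called or not. Leaving out 1 library at a time gave 1930 to 2662 called genes, and the number of rises was 940 without untreated library 1 and 902 without treated library 2. All changes below are log2 ratios, treated over untreated, with their standard error (SE), levels are CPM (read counts relative to library totals corrected with TMM factors), where given as mean ± SD over 3 libraries, and a gene is said to rise or fall only where it passed that test. In cultured cells measured in bulk, fewer cells of a kind and less RNA per cell cannot be told apart.

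**Figure D1:**
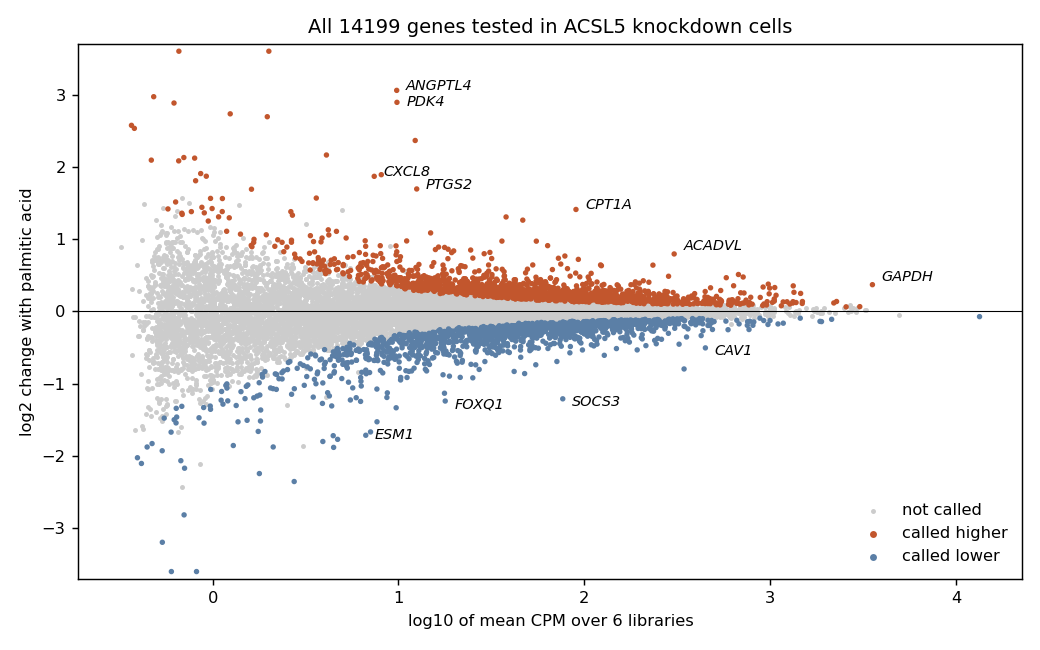
Change with palmitic acid in ACSL5 knockdown cells (log2, treated over untreated, vertical axis) against mean expression (log10 CPM over the 6 libraries, horizontal axis) for the 14199 tested genes, with genes called higher, lower and not called in separate colours. Calls in both directions spread over the whole range of expression and most lie close to 0, while ANGPTL4 and PDK4 stand at 3.06 and 2.89; 4 genes beyond 3.6 in size are drawn at the edge.

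The hairpin target was still low with palmitic acid. ACSL5 (GRCh38 chromosome 10, 112374018 to 112428380, plus strand) stood at 10.8, 10.2 and 12.5 CPM without and 14.9, 13.2 and 17.5 CPM with palmitic acid in the knockdown cells. In control cells it stood at 142, 143 and 145 CPM without and 189, 194 and 189.6 CPM with palmitic acid. The 12 libraries thus fell into 4 groups that did not overlap, with each knockdown library far below each control library. Within the knockdown cells the residual ACSL5 message rose by 0.44 (SE 0.12, adjusted p = 0.0123), a call that was lost without untreated library 1 or 2 or treated library 3 (adjusted p up to 0.0728). Of the other long-chain acyl-CoA synthetases, ACSL3, the enzyme of ER and lipid droplets, rose by 0.27 (SE 0.05, adjusted p = 0.00154), and this rise was larger than in control cells by 0.29 (SE 0.07, adjusted p = 0.00664). ACSL4, which prefers polyunsaturated chains, rose by 0.16 (SE 0.04, adjusted p = 0.0125), but not without untreated library 3 or treated library 2 (adjusted p up to 0.0782). ACSL1 stood at a change of 0.12 (SE 0.07, adjusted p = 0.194), and ACSL6 had 0 counts in all 6 libraries.

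The largest rises, taken among called genes with an approved symbol, a mean of at least 5 CPM and no overlap between the groups, joined fatty acid disposal with inflammatory genes. ANGPTL4, a secreted inhibitor of lipoprotein lipase, stood at 2.01, 1.66 and 2.58 CPM without and 16.2, 18.7 and 17.6 CPM with palmitic acid. PDK4, a kinase that inhibits pyruvate dehydrogenase when fat is burned, stood at 2.38, 2.72 and 1.90 CPM without and 17.4, 16.5 and 18.0 CPM with palmitic acid. Every treated library was several times above every untreated one for both genes, and the changes were 3.06 (SE 0.15, adjusted p = 6.19e-11) and 2.89 (SE 0.14, adjusted p = 6.08e-11). CXCL8, the neutrophil chemokine interleukin 8, went from 3.20, 3.02 and 3.32 CPM to 12.4, 12.4 and 10.1 CPM, a change of 1.87 (SE 0.14, adjusted p = 5.38e-08). PTGS2, the prostaglandin-forming enzyme COX-2, went from 5.80, 6.51 and 5.48 CPM to 20.3, 19.9 and 17.2 CPM, a change of 1.69 (SE 0.11, adjusted p = 7.36e-09). CPT1A, which loads fatty acids onto carnitine for entry into the mitochondrion, rose from 49.2 ± 2.94 to 131 ± 5.00 CPM, by 1.41 (SE 0.05, adjusted p = 4.95e-12). These 5 genes were followed by a mixed group: the desmosome protein desmoplakin (DSP, 1.31), the secreted glycoprotein stanniocalcin 1 (STC1, 1.26), the actin-bundling protein LCP1 (1.09), NELL2 (1.02), the endolysosomal channel MCOLN3 (0.98), the long non-coding RNA DLEU2 (0.97) and the mTORC1 inhibitor DDIT4 (0.97). For DDIT4, 41.2% of the exonic bases overlap another annotated gene, and the strand setting of the counting is not given, so its reads could include that gene's.

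The largest falls under the same limits were led by ESM1, the endothelial-type proteoglycan endocan, which stood at 9.73, 10.3 and 10.6 CPM without and 2.92, 3.16 and 3.26 CPM with palmitic acid. The treated libraries were all under every untreated one, and the change was -1.71 (SE 0.14, adjusted p = 1.40e-07). FOXQ1, a forkhead transcription factor tied to epithelial-mesenchymal transition, fell from 25.1 ± 2.43 to 10.6 ± 0.198 CPM, by 1.24 (SE 0.09, adjusted p = 4.62e-08). SOCS3, the feedback inhibitor of IL6-type cytokine receptors, fell from 104, 105 and 111 CPM to 45.7, 44.2 and 48.7 CPM, with no overlap between the groups, a change of -1.21 (SE 0.05, adjusted p = 2.78e-11). The actin-associated genes FILIP1L (-1.53) and FHL1 (-1.19), the cyclic nucleotide phosphodiesterase PDE1C (-1.33) and the sialyltransferase ST6GALNAC5 (-1.07), known as a gene of breast cancer spread to the brain, also fell. CYP1A1, the classic target of the aryl hydrocarbon receptor, stood at 8.18, 6.75 and 8.06 CPM without and 3.65, 3.56 and 3.85 CPM with palmitic acid. The transcription factor ATOH8 changed by -1.13, the zinc finger gene ZNF566 by -1.19 and SFTA3 by -1.13. RIOX1, a ribosomal oxygenase, stood at 6.40, 19.7 and 6.22 CPM in the untreated and 2.73, 1.50 and 5.88 CPM in the treated libraries, and its fall of 1.67 missed the threshold without untreated library 2, with DESeq2 or in the fit over all 12 libraries (adjusted p up to 0.107).

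**Figure D2:**
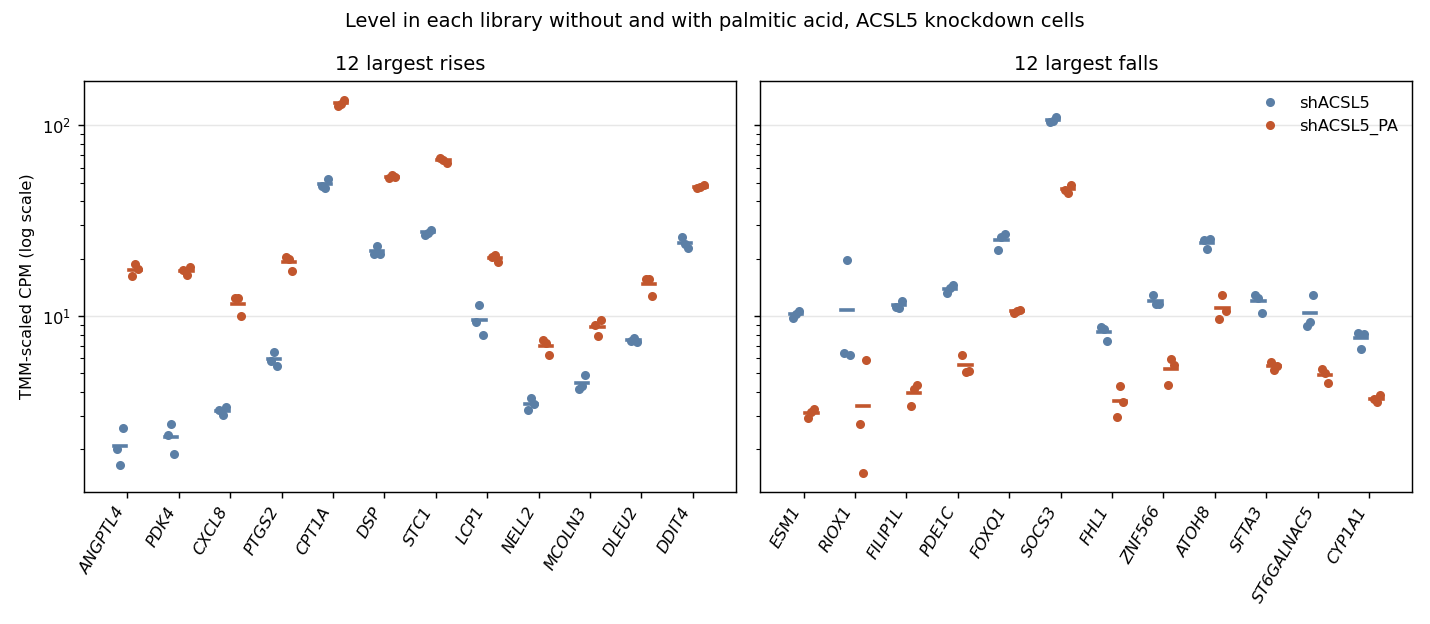
Level in each of the 6 libraries (TMM-scaled CPM, log axis) of the 12 genes with the largest rises and the 12 with the largest falls among called genes with an approved symbol, at least 5 CPM and no overlap between the groups; points are libraries and short lines the means of 3. The separation of treated from untreated libraries in each of the 24 genes was a condition of their choice.

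Several targets of the PPAR receptors rose, while the receptor genes PPARA and PPARG fell. The 12 tested targets had a median change of 0.75 against 0.00312 for all genes. Of these targets 7 rose and 0 fell (58.3% called, against 20.4% of all tested genes). Besides ANGPTL4, PDK4 and CPT1A, these were the lipid droplet coat PLIN2, the lipoprotein receptor VLDLR, the carnitine-acylcarnitine carrier SLC25A20 and the very-long-chain acyl-CoA dehydrogenase ACADVL. PLIN2 stood at 56.0, 57.9 and 60.7 CPM without and 97.6, 98.0 and 101 CPM with palmitic acid. ACADVL stood at 224, 215 and 228 CPM without and 382, 381 and 395 CPM with palmitic acid. Neither gene overlapped between the groups, and the changes were 0.77 (SE 0.05, adjusted p = 5.78e-09) and 0.79 (SE 0.04, adjusted p = 2.78e-11). SLC25A20 rose by 0.86 (SE 0.09, adjusted p = 3.38e-06) and VLDLR by 0.73 (SE 0.09, adjusted p = 1.44e-05). The receptor genes PPARA and PPARG fell by 0.36 (SE 0.07, adjusted p = 0.00203) and 0.44 (SE 0.07, adjusted p = 1.20e-04). In the fit over all 12 libraries the median change of the 12 targets was 0.76 in knockdown and 0.71 in control cells, but single genes differed. The interaction, the response in knockdown minus that in control cells, was positive for PDK4, at 1.13 (SE 0.17, adjusted p = 6.55e-05), and VLDLR, at 0.46 (SE 0.10, adjusted p = 0.00393), while PLIN2 had an interaction of -0.26 (SE 0.07, adjusted p = 0.0152), a difference lost without shControl library 1 (adjusted p up to 0.0541). TXNIP, an arrestin that restrains glucose uptake, stood at -0.11 (SE 0.06, adjusted p = 0.272) and was not called. The PPAR response element, searched on both strands as AGGTCA, any 1 base and AGGTCA in the RefSeq windows (GRCh38.p14) from 250 bases before to 50 after each gene start, was in 0 of 7 windows of targets that rose and in 3 of 10562 windows of all tested genes. Letters this rare cannot tell whether the targets carry such an element. Variants of the letters and sequence outside the windows were not searched.

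The fatty acid oxidation list had 36 tested members, of which 7 rose and 0 (1 without untreated library 2 or treated library 1) fell, and their median change was 0.10. The share called, 19.4%, was close to the 20.4% of all tested genes. Among 17 tested mitochondrial enzymes 13 were not called, and 1 of 11 tested peroxisomal enzymes rose. Besides CPT1A, SLC25A20 and ACADVL, the rises included the thiolase ACAA2, the last enzyme of the beta-oxidation spiral. They also included genes of the electron transfer flavoprotein system that passes its electrons on. ACAA2 stood at 45.0, 42.0 and 45.0 CPM without and 80.3, 79.7 and 88.6 CPM with palmitic acid, without overlap, a change of 0.91 (SE 0.06, adjusted p = 4.11e-09). ETFA rose by 0.33 (SE 0.04, adjusted p = 8.69e-06) and ETFDH by 0.58 (SE 0.10, adjusted p = 5.60e-04). ACAA2 rose more than in control cells, with a difference of 0.35 (SE 0.08, adjusted p = 0.00275), while that of ETFDH was 0.39 (SE 0.13, adjusted p = 0.0510). In the list of nuclear-encoded respiratory chain subunits, 4 (1 without untreated library 1 or treated library 1 and 2 without untreated library 3) of 66 tested genes rose and 1 (0 without untreated library 1 or treated library 1 or 2) fell. The median of the 66 changes was 0.04, and 7.58% of the subunits were called, under the 20.4% of all tested genes. The clearest of these was COX5A of complex IV, which went from 31.9 ± 2.27 to 43.1 ± 2.24 CPM, by 0.44 (SE 0.07, adjusted p = 2.18e-04), with an interaction of 0.39 (SE 0.08, adjusted p = 0.00190). The other called subunits were UQCRH (0.18) and CYC1 (-0.13) of complex III, NDUFA7 (0.33) of complex I and SDHC (0.16) of complex II, and each lost its call without 1 or more libraries: UQCRH without untreated library 1 or 3 or treated library 1 (adjusted p up to 0.118), CYC1 without untreated library 1 or treated library 1 or 2 (adjusted p up to 0.0792), NDUFA7 without untreated library 1 or treated library 1 or 2 (adjusted p up to 0.136) and SDHC without any 1 library other than untreated library 2 or treated library 2 or with scaling by library sizes alone (adjusted p up to 0.218). For NDUFA7, 91.4% of the exonic bases overlap another annotated gene.

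Genes of fatty acid synthesis and storage moved in both directions. Palmitic acid raised 6 and lowered 3 of the 22 tested genes of the synthesis and desaturation list, whose median change was 0.06. Of the 22, 40.9% were called, against 20.4% of all tested genes. The committed steps fell: acetyl-CoA carboxylase ACACA by 0.27 (SE 0.04, adjusted p = 2.44e-05) and fatty acid synthase FASN by 0.19 (SE 0.04, adjusted p = 0.00386). The stearoyl-CoA desaturase SCD, which turns saturated into monounsaturated chains, rose from 893, 904 and 913 CPM to 1072, 1055 and 1081 CPM, by 0.24 (SE 0.03, adjusted p = 3.22e-06). In the fit over all 12 libraries SCD stood at 0.25 in knockdown and -0.07 in control cells, an interaction of 0.32 (SE 0.03, adjusted p = 2.96e-07). ACLY, the cytosolic source of acetyl-CoA, rose by 0.15 and the elongation enzyme HSD17B12 by 0.19. Of the 27 tested genes of the triglyceride and lipid droplet list, 6 rose and 2 fell (29.6% called), around a median change of 0.05. The first acyltransferase of glycerolipid synthesis in the ER, GPAT4, rose by 0.30 and the phosphatidate phosphatase LPIN3 by 0.45. DGAT2, which makes triglyceride, fell from 12.1, 10.4 and 12.4 CPM to 8.08, 7.87 and 6.84 CPM, a change of -0.62 (SE 0.12, adjusted p = 0.00132). The monoglyceride lipase MGLL fell by 0.30 and the lysosomal acid lipase LIPA rose by 0.38 (SE 0.06, adjusted p = 2.24e-04), the latter more than in control cells by 0.31 (SE 0.07, adjusted p = 0.00502). The malic enzyme ME1, a source of NADPH for synthesis, rose by 0.34.

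Among 22 tested members of the list for fatty acid uptake and activation, 4 (2 without untreated library 2) rose and 1 (0 without any 1 library other than treated library 3) fell, with a median change of -0.01 over all 22. At 22.7%, the share called was close to the 20.4% of all tested genes. Apart from the ACSL genes, ACSS2, which activates acetate, rose by 0.32 (SE 0.09, adjusted p = 0.0132), but not without untreated library 2 or treated library 3 (adjusted p up to 0.0742). The thioesterase ACOT11, at only 1.85 CPM on average, was called lower (-0.87) but not without any 1 library other than treated library 3 or in the fit over all 12 libraries (adjusted p up to 0.105).

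More cholesterol genes rose than fell, most of them by small amounts. The cholesterol list had 34 tested members, of which 11 rose and 2 fell, and their median change was 0.10. Of the 34, 38.2% were called, against 20.4% of all tested genes. The 20 tested synthesis enzymes gave 8 rises and 0 falls (40.0% called) at a median of 0.14. HMGCS1, which makes the precursor of mevalonate, stood at 125, 134 and 119 CPM without and 150.1, 149.6 and 148 CPM with palmitic acid. FDFT1, squalene synthase, stood at 238, 236 and 243 CPM without and 272, 279 and 282 CPM with palmitic acid. The 2 groups did not overlap in either gene, and the changes were 0.25 (SE 0.05, adjusted p = 7.52e-04) and 0.22 (SE 0.04, adjusted p = 2.60e-04). IDI1 rose by 0.29, MSMO1 by 0.23 and the sterol carrier STARD4 by 0.28. Over all 12 libraries the median of the 20 enzymes was 0.15 in knockdown and 0.03 in control cells. The response differed for 6 of the enzymes, each time in the positive direction, and for 14.5% of all tested genes in either direction. MSMO1 stood at 0.24 in knockdown and -0.32 in control cells, with an interaction of 0.56 (SE 0.06, adjusted p = 1.48e-06). MYLIP, a ubiquitin ligase, fell by 0.90 (SE 0.09, adjusted p = 2.72e-06) and the cholesterol exporter ABCA1 by 1.06 (SE 0.28, adjusted p = 0.0113), both targets of the oxysterol receptor LXR. INSIG2, which holds the sterol sensor in the ER, rose by 0.52 (SE 0.11, adjusted p = 0.00207). The sterol response element, searched in the same way as ATCAC, any 1 base and CCAC, was in 1 of 27 windows of the cholesterol list, that of SREBF2, and in 10 of 10562 of all tested genes. This search too cannot tell whether the other genes carry a variant of the element or hold it outside the windows.

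The sphingolipid list, the route by which palmitoyl-CoA becomes ceramide, showed subunit changes without a common direction. In the sphingolipid list, 3 of 31 tested genes rose and 3 (5 without untreated library 2) fell, and the median of the 31 changes was -0.03. Its share called, 19.4%, was close to the 20.4% of all tested genes. Within serine palmitoyltransferase, the first enzyme, the small activating subunit SPTSSA rose by 0.42 (SE 0.06, adjusted p = 6.58e-05) and the catalytic subunit SPTLC3 fell by 0.45 (SE 0.07, adjusted p = 2.91e-04). The alternative small subunit SPTSSB was called lower at -1.04, but not without any 1 library other than untreated library 2 or treated library 1 (adjusted p up to 0.125). The acid ceramidase ASAH1, which breaks ceramide down, stood at 50.8, 56.5 and 51.0 CPM without and 69.4, 70.3 and 62.6 CPM with palmitic acid, a rise of 0.36 (SE 0.06, adjusted p = 4.15e-04) without overlap. The ceramide glucosyltransferase UGCG fell by 0.21. In the 12-library fit ASAH1 stood at 0.37 in knockdown and -0.04 in control cells (interaction 0.41, SE 0.07, adjusted p = 6.47e-04).

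Most tested effectors of the integrated stress response rose without a called rise of its transcription factors ATF4, ATF3 and DDIT3 (CHOP) in the 6-library test. Palmitic acid raised 15 and lowered 5 (3 without untreated library 1 or treated library 2) of the 43 tested genes of the integrated stress response list, whose median change was 0.09. Of these 43, 46.5% were called, against 20.4% of all tested genes. The list's 11 tested stress effectors had 8 rises and 1 fall (81.8% called) with a median of 0.50. GDF15, a secreted stress hormone, stood at 1.51, 2.25 and 1.74 CPM without and 4.82, 5.96 and 5.40 CPM with palmitic acid. SESN2, a sestrin that restrains mTORC1, stood at 13.2, 14.9 and 14.6 CPM without and 23.6, 26.7 and 25.9 CPM with palmitic acid. All treated libraries exceeded all untreated ones in both, and the changes were 1.57 (SE 0.21, adjusted p = 4.12e-05) and 0.84 (SE 0.09, adjusted p = 2.20e-06). The pseudokinase TRIB3 rose by 0.50 (SE 0.08, adjusted p = 4.04e-04), the asparagine synthetase ASNS by 0.41 (SE 0.04, adjusted p = 4.51e-06) and the amino acid transporter chain SLC3A2 by 0.28 (SE 0.04, adjusted p = 4.39e-05). For ASNS, 44.6% of the exonic bases are shared with an overlapping annotated gene. ATF4 itself stood at 0.09 (SE 0.03, adjusted p = 0.0751) and was called in the fit over all 12 libraries, ATF3 at 0.26 (SE 0.10, adjusted p = 0.0829) and DDIT3 at 0.29 (SE 0.10, adjusted p = 0.0621). DDIT3 was called without treated library 2, and 39.6% of its exonic bases overlap MARS1. PPP1R15A (GADD34), which ends the response by dephosphorylating eIF2-alpha, rose by 0.28 in knockdown and 0.92 in control cells in the 12-library fit, an interaction of -0.64 (SE 0.06, adjusted p = 2.59e-07). STC2 fell by 0.84 and the proline enzyme PYCR1 by 0.30.

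A pair of promoters of this response is shown because ATF4 and CHOP are known to act through a composite element, searched here on both strands as TGATGNAAN in the RefSeq window (GRCh38.p14) of 250 bases before to 50 after each gene start, with the match in capitals. The stretches read 5′ to 3′ along the gene:
ASNS, chr7:97872458-97872486, minus strand: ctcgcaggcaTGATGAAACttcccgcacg
CHAC1, chr15:40953251-40953279, plus strand: ctcccctgccGTTGCATCActcctgccag
These letters occurred in the windows of 183 of 10562 tested genes (1.73%), in 6 of 36 of the stress response list and in 6 of 16 of the aminoacyl-tRNA synthetases. The synthetases with a match were AARS1, CARS1, IARS1, MARS1, NARS1 and TARS1, and YARS1, SARS1 and GARS1, described below, were not among them. A match is a description of the sequence and not a bound site. These counts are not split by call, so they do not tie the letters to the rises. The glutathione-degrading enzyme CHAC1 was called higher at 0.67, but not without untreated library 1 or 3 or treated library 1 (adjusted p up to 0.0985). The synthetases, which charge tRNAs with amino acids, moved little. Of the 20 tested genes of the synthetase list, 5 (3 without untreated library 1 or 3 or treated library 1) rose and 2 (0 without untreated library 1 or treated library 1 or 2 and 1 without untreated library 2 or 3) fell, around a median change of 0.06. That is 35.0% called, against 20.4% of all tested genes. YARS1 rose by 0.21 (SE 0.04, adjusted p = 0.00189), SARS1 by 0.19 (SE 0.03, adjusted p = 3.31e-04) and GARS1 by 0.17 (SE 0.03, adjusted p = 0.00192). IARS1 was called at 0.10, but not without any 1 library or with scaling by library sizes alone (adjusted p up to 0.148).

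The genes of protein folding in the ER that passed the test all rose. Among 43 tested members of the ER protein folding list, 17 rose and 0 fell. The median change over all 43 was 0.12, and 39.5% were called, against 20.4% of all tested genes. HSPA5 (BiP), the main ER chaperone and sensor of unfolded proteins, stood at 885, 874 and 888 CPM without and 1101, 1102 and 1106 CPM with palmitic acid. HSP90B1 (GRP94), the ER member of the HSP90 family, stood at 612, 618 and 564 CPM without and 832, 848 and 815 CPM with palmitic acid. The groups did not overlap for either chaperone, and the changes were 0.32 (SE 0.03, adjusted p = 7.10e-08) and 0.48 (SE 0.03, adjusted p = 1.85e-08). EDEM3, which marks misfolded glycoproteins for degradation, rose by 0.44 (SE 0.07, adjusted p = 1.43e-04), the lectin chaperone CALR by 0.19 (SE 0.03, adjusted p = 7.45e-05) and the disulphide isomerase PDIA3 by 0.21 (SE 0.03, adjusted p = 2.73e-04). DNAJB9, a target of the XBP1 branch, stood at -0.05 (SE 0.08, adjusted p = 0.714). Across the 12 libraries the median of the list was 0.13 in knockdown and 0.18 in control cells, and for the 14 chaperones 0.13 and 0.30. The response was less positive in knockdown cells for 8 genes of the list and more positive for 1, where 14.5% of all tested genes passed the interaction test. HSPA5 rose by 0.33 in knockdown and 0.60 in control cells (interaction -0.27, SE 0.03, adjusted p = 3.93e-06) and the degradation factor HERPUD1 by 0.20 and 0.63 (interaction -0.43, SE 0.07, adjusted p = 1.97e-04). The secreted ER stress protein MANF rose by 0.26 (SE 0.05, adjusted p = 5.06e-04). The disulphide isomerase P4HB was called at 0.12, but not without any 1 library other than untreated library 3 or treated library 1 (adjusted p up to 0.103).

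The promoters of the chaperones are shown because they carry the ER stress response element known to bind ATF6, searched on both strands as CCAAT and CCACG with 9 bases of any kind between them. The match is in capitals:
HSPA5, chr9:125241386-125241414, minus strand: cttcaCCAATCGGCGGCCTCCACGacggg
HSP90B1, chr12:103930211-103930239, plus strand: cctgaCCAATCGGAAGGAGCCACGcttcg
CALR, chr19:12938379-12938407, plus strand: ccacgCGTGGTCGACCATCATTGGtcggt
The windows of 14 of 10562 tested genes held it (0.133%), against 7 of 40 genes of the ER folding list and 5 of 14 chaperones. HSP90B1 holds a second match closer to its start, and that of CALR lies on the opposite strand.

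Heat shock genes gave a median change close to that of all genes. The heat shock list had 23 tested members, of which 6 (3 without untreated library 3 or treated library 2) rose and 1 fell, and their median change was 0.01. Of the 23, 30.4% were called, against 20.4% of all tested genes. The inducible HSP90AA1 rose by 0.35 (SE 0.03, adjusted p = 4.06e-07) and the mitochondrial chaperonin HSPD1 by 0.22 (SE 0.03, adjusted p = 7.55e-05), though 25.6% of the 31-base sequences of each also occur in transcripts of other genes. HSPA1B, with 74.4% shared sequence, cannot be separated from its copy HSPA1A by counting. With all 12 libraries in the model the median of the list was 0.02 in knockdown and 0.19 in control cells. By the interaction test, passed by 14.5% of all tested genes, 8 members responded less positively in knockdown cells. The nucleotide exchange factor HSPA4 was the fall of the list, at -0.14, and its relative HSPA4L was called at 0.23, but not without untreated library 3 or treated library 2 (adjusted p up to 0.0567).

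Among antioxidant and iron genes the called changes were small. In the NRF2 and glutathione list, 7 (3 without untreated library 1 and 4 without any 1 library other than untreated library 1 or treated library 3) of 26 tested genes rose and 1 (2 without treated library 3) fell, and the median of the 26 changes was 0.06. Calls made up 30.8% of the 26, against 20.4% of all tested genes. HMOX1, the haem oxygenase that frees iron from haem, stood at 9.68, 9.12 and 9.54 CPM without and 13.1, 12.4 and 13.5 CPM with palmitic acid, a rise of 0.46 (SE 0.10, adjusted p = 0.00398). EPHX1, an epoxide hydrolase, rose by 0.35 (SE 0.08, adjusted p = 0.00366) and PGD of the pentose phosphate pathway by 0.21 (SE 0.04, adjusted p = 0.00120). KEAP1, the adaptor that marks NRF2 for degradation, fell by 0.24 in the knockdown cells, and over all 12 libraries stood at -0.23 against 0.22 in control cells (interaction -0.45, SE 0.06, adjusted p = 3.62e-05). Palmitic acid raised 4 and lowered 2 of the 13 tested genes of the iron list (46.2% called), whose median change was 0.10. The ferritin subunits FTH1 and FTL store iron. FTL stood at 1279.9, 1241 and 1279 CPM without and 1344, 1352 and 1424 CPM with palmitic acid, a change of 0.12 (SE 0.03, adjusted p = 0.00578), and 33.3% of its sequence is shared with other transcripts. FTH1 rose by 0.25 (SE 0.03, adjusted p = 9.68e-06), and 62.4% of its exonic bases overlap BEST1. The ferritins rose less than in control cells: the interactions were -0.74 (SE 0.04, adjusted p = 8.39e-12) for FTL and -0.45 (SE 0.04, adjusted p = 1.77e-07) for FTH1. The transferrin receptor TFRC rose by 0.21, while the ferrireductase STEAP3 fell by 0.34 and the iron sensor ACO1 by 0.15. Of the 11 tested genes of the metallothionein and zinc list, 2 rose and 2 (1 without any 1 library other than treated library 2) fell (36.4% called), around a median change of 0.06. The metal-binding MT2A rose by 0.35 (SE 0.04, adjusted p = 1.52e-06), and the zinc exporter SLC30A1 fell by 0.45 (SE 0.07, adjusted p = 1.87e-04). MT1E rose by 0.23. The zinc-sensing factor MTF1 was called at -0.22, but not without any 1 library other than treated library 2 (adjusted p up to 0.198), and the thioredoxin reductase TXNRD1 at 0.08, but not without any 1 library, with scaling by library sizes alone or with no low-count filter (adjusted p up to 0.205).

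Several inflammatory genes rose, among them components and targets of NF-kB, the transcription factor freed from its inhibitors by inflammatory signals. Among 37 tested members of the inflammatory list, 13 rose and 3 fell. The median change over all 37 was 0.12, and 43.2% were called, against 20.4% of all tested genes. Besides CXCL8 and PTGS2, the rises included genes of NF-kB subunits, inhibitors and targets. RELB, a subunit of the non-canonical branch, stood at 4.98, 5.33 and 5.85 CPM without and 9.69, 7.57 and 10.4 CPM with palmitic acid. BIRC3, an NF-kB target that blocks cell death, stood at 4.52, 4.74 and 4.69 CPM without and 9.74, 8.52 and 7.75 CPM with palmitic acid. The groups were apart in both genes, RELB being higher by 0.78 (SE 0.15, adjusted p = 0.00106) and BIRC3 by 0.90 (SE 0.14, adjusted p = 2.24e-04). NFKB2 rose by 0.49 (SE 0.05, adjusted p = 2.24e-06) and NFKBIZ, a nuclear co-regulator, by 0.77 (SE 0.14, adjusted p = 9.27e-04). The cytokine genes went both ways: the growth factor CSF2 (GM-CSF), at only 0.801 CPM on average, changed by 2.12 (SE 0.49, adjusted p = 0.00459) and IL11 by 0.81 (SE 0.09, adjusted p = 3.76e-06), while the monocyte attractant CCL2 fell by 1.07 (SE 0.24, adjusted p = 0.00377) and CSF1 by 0.36 (SE 0.05, adjusted p = 2.19e-05). IL6 stood at 0.640, 0.474 and 0.474 CPM without and 0.779, 0.251 and 0.588 CPM with palmitic acid, which overlap, and its change was 0.02 (SE 0.50, adjusted p = 0.987). The chemokine gene CXCL2 was called at 1.11, but not without any 1 library other than untreated library 3 or treated library 2, with scaling by library sizes alone or with limma voom (adjusted p up to 0.203), and the inhibitor gene NFKBIA at 0.21, but not without any 1 library other than untreated library 2 or treated library 2 (adjusted p up to 0.136). The activation marker CD83 rose by 0.57 (SE 0.14, adjusted p = 0.00692). BCL2A1, an anti-apoptotic NF-kB target, was called at 0.95, but not without any 1 library other than untreated library 3 or treated library 1, with scaling by library sizes alone, with DESeq2 or with limma voom (adjusted p up to 0.221).

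The promoters of 4 inflammatory genes called higher are shown because they hold the NF-kB motif, searched on both strands as GGGNN directly followed by TTNCC, in capitals:
CXCL2, chr4:74099254-74099283, minus strand: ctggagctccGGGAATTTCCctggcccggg
BIRC3, chr11:102317275-102317304, plus strand: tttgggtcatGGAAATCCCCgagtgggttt
NFKBIZ, chr3:101827757-101827786, plus strand: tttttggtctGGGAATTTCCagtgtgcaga
NFKBIA, chr14:35404811-35404840, minus strand: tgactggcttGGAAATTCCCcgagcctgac
The motif was in the windows of 701 of 10562 tested genes (6.64%) and of 12 of 32 genes of the inflammatory list. By call, 5 of 12 windows of members called higher and 7 of 20 of members not called held it, and among those without it were CXCL8, PTGS2 and NFKB2. Whether these hold a variant of the letters, or a match outside the windows, was not searched. In the 12-library fit the median of the list was 0.13 in knockdown and 0.37 in control cells. There 9 genes responded less positively and 3 more positively in knockdown cells, where 14.5% of all tested genes passed the interaction test. CXCL8 rose by 1.88 in knockdown and 4.10 in control cells, an interaction of -2.22 (SE 0.21, adjusted p = 2.96e-07). For PTGS2 the responses were 1.70 and 2.99 (interaction -1.29, SE 0.14, adjusted p = 1.47e-06), and for NFKBIA 0.21 and 1.02 (interaction -0.80, SE 0.08, adjusted p = 6.45e-07). TNFAIP3 (A20), an NF-kB feedback inhibitor, stood at -0.10 in knockdown and 1.42 in control cells (interaction -1.53, SE 0.21, adjusted p = 3.00e-05).

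Of the tested genes of IL6-type signalling, 18.5% passed the test, close to the 20.4% of all tested genes. The IL6 family list had 27 tested members, of which 1 (0 without untreated library 1) rose and 4 (2 without untreated library 1 or treated library 2) fell, and their median change was -0.05. SOCS3, described above, fell most. The ligand CLCF1 fell by 0.35 (SE 0.09, adjusted p = 0.0112). The receptor IL6R rose by 0.44, but not without untreated library 1 (adjusted p up to 0.0523). The STAT3 target PIM1 was called at -0.20, but not without untreated library 1 or 3 or treated library 2 (adjusted p up to 0.0975), and SOCS5 at -0.21, but not without untreated library 1 or treated library 2 (adjusted p up to 0.0757).

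Among interferon-stimulated genes more fell than rose, and among MHC class I genes more rose than fell. In the interferon list, 1 (2 without untreated library 1) of 32 tested genes rose and 9 fell, and the median of the 32 changes was -0.11. Calls made up 31.25% of these 32, against 20.4% of all tested genes. OAS1, a sensor of double-stranded RNA, stood at 7.26, 5.63 and 8.54 CPM without and 4.43, 2.71 and 3.74 CPM with palmitic acid. IFIT2, which blocks translation of viral RNA, stood at 117, 124 and 106 CPM without and 83.2, 84.2 and 71.7 CPM with palmitic acid. The groups did not overlap, and the changes were -0.98 (SE 0.20, adjusted p = 0.00162) and -0.53 (SE 0.06, adjusted p = 1.02e-05). IFIT1 fell by 0.49 (SE 0.05, adjusted p = 1.16e-06), IFIT3 by 0.28, ISG15 by 0.22 and OASL by 0.44. Palmitic acid raised 6 (3 without any 1 library other than untreated library 3 or treated library 3) and lowered 1 (0 without any 1 library other than treated library 2 or treated library 3) of the 20 tested genes of the MHC class I list (35.0% called), whose median change was 0.09. The peptide transporter TAP1 rose by 0.37 (SE 0.08, adjusted p = 0.00200). HLA-B was called at 0.29, but not without any 1 library other than untreated library 3 or treated library 3 (adjusted p up to 0.109), and HLA genes share part of their sequence with one another. Promoters of 4 of these genes are shown because they hold the interferon response motif, GAAA, any 2 bases and GAAA or its complement on the other strand, in capitals:
IFIT1, chr10:89392504-89392532, plus strand: tagTTTCACTTTCcccTTTCGGTTTCcct
IFIT3, chr10:89327831-89327860, plus strand: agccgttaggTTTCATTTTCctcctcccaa
ISG15, chr1:1013377-1013406, plus strand: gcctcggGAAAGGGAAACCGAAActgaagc
TAP1, chr6:32853816-32853845, minus strand: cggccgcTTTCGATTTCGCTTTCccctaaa
The motif was in 17 of 26 windows of the interferon list and 9 of 17 of the MHC class I list, against 289 of 10562 (2.74%) of all tested genes. Across the 12 libraries IFIT1 stood at -0.48 in knockdown and 0.05 in control cells (interaction -0.53, SE 0.06, adjusted p = 4.60e-06) and IFIT2 stood at -0.53 and 0.22 (interaction -0.75, SE 0.09, adjusted p = 4.19e-06), whereas OAS1 stood at -0.97 and -0.88 (interaction -0.09, SE 0.36, adjusted p = 0.905). Of the remaining genes of both lists, IFI44L fell by 0.83 (SE 0.18, adjusted p = 0.00294). B2M, the light chain of MHC class I, was called at 0.11, but not without any 1 library other than treated library 3 (adjusted p up to 0.142), HLA-C at 0.30, but not without any 1 library other than untreated library 3, with scaling by library sizes alone, with DESeq2 or with no low-count filter (adjusted p up to 0.153), and HLA-F, at 0.641 CPM, at -1.46, but not without any 1 library other than treated library 2, with no low-count filter or in the fit over all 12 libraries (adjusted p up to 0.153).

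Of the tested hypoxia and glycolysis genes, 61.5% were called, against 20.4% of all tested genes, and most of them rose. Of the 52 tested genes of the hypoxia and glycolysis list, 28 rose and 4 (1 without untreated library 1 and 2 without untreated library 2 or treated library 1) fell, around a median change of 0.15. P4HA1, a collagen prolyl hydroxylase and textbook target of hypoxia-inducible factors, stood at 68.2, 72.1 and 70.1 CPM without and 119, 116 and 112 CPM with palmitic acid. VEGFA, the main angiogenic growth factor, stood at 59.3, 55.8 and 58.8 CPM without and 90.5, 90.3 and 93.3 CPM with palmitic acid. ENO2, an enolase, stood at 55.0, 51.7 and 56.4 CPM without and 92.9, 89.9 and 89.2 CPM with palmitic acid. In each of the 3 the lowest treated library was above the highest untreated one, and the changes were 0.72 (SE 0.05, adjusted p = 5.82e-09), 0.65 (SE 0.05, adjusted p = 3.84e-08) and 0.74 (SE 0.05, adjusted p = 1.30e-08). The glycolytic enzyme gene GAPDH rose by 0.37 (SE 0.03, adjusted p = 9.96e-09) and PGK1 by 0.34 (SE 0.03, adjusted p = 5.67e-08), although 20.1% of the sequence of GAPDH is shared with other transcripts. PDK1, which like PDK4 inhibits pyruvate dehydrogenase, rose by 0.63 (SE 0.08, adjusted p = 3.32e-05), and the mitophagy receptor BNIP3 by 0.64 (SE 0.04, adjusted p = 9.96e-09). EPAS1, which encodes HIF-2-alpha, rose by 0.73 (SE 0.09, adjusted p = 1.23e-05). With all 12 libraries in the model the median of the list was 0.16 in knockdown and 0.22 in control cells. In knockdown cells 9 members responded more positively and 9 less positively, where 14.5% of all tested genes passed the interaction test. EPAS1 stood at 0.74 in knockdown and -0.06 in control cells in this model, an interaction of 0.80 (SE 0.11, adjusted p = 1.90e-05). The vasodilator peptide gene ADM went the other way, -0.26 and 0.99 (interaction -1.25, SE 0.18, adjusted p = 5.32e-05), and its fall within the knockdown cells (-0.27) was lost without any 1 library other than untreated library 3 or treated library 3 or in the fit over all 12 libraries (adjusted p up to 0.111). Low-level members were less firm. The lactate carrier SLC16A1 was called at 1.00, but not without untreated library 1 or treated library 2 (adjusted p up to 0.102), and the carbonic anhydrase CA9 at 0.67, but not without untreated library 1 or 3 or treated library 2 (adjusted p up to 0.133).

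Of the autophagy and lysosome genes, more rose than fell, including several autophagy receptors. Among 44 tested members of the autophagy and lysosome list, 17 (11 without untreated library 1) rose and 3 fell, with a median change of 0.10 over all 44. Of the 44, 45.5% were called, against 20.4% of all tested genes. The list's 21 tested lysosomal genes gave 11 rises and 1 fall (57.1% called) at a median of 0.14. MAP1LC3B, the LC3 protein that coats autophagosomes, stood at 166, 160.2 and 159 CPM without and 218, 218 and 208 CPM with palmitic acid. TAX1BP1, a receptor that links cargo to LC3, stood at 46.3, 47.7 and 44.0 CPM without and 69.3, 61.0 and 61.1 CPM with palmitic acid. The groups did not overlap, and the changes were 0.41 (SE 0.04, adjusted p = 7.78e-07) and 0.47 (SE 0.06, adjusted p = 3.06e-05). The receptors OPTN (0.31) and SQSTM1 (0.29), the lysosomal sialidase NEU1 (0.51) and the lysosomal membrane protein LAMP2 (0.20) also rose. MITF, a transcription factor of lysosomal genes, fell by 0.50 (SE 0.06, adjusted p = 7.58e-06) and the initiation factor ATG14 by 0.52. In the 12-library fit TAX1BP1 stood at 0.48 in knockdown and -0.08 in control cells (interaction 0.56, SE 0.08, adjusted p = 3.07e-05), while SQSTM1 stood at 0.30 and 1.04 (interaction -0.75, SE 0.04, adjusted p = 7.61e-11). For SQSTM1, 22.0% of the exonic bases overlap MRNIP.

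Growth factor signalling genes fell more often than they rose. The MAPK feedback list had 22 tested members, of which 3 (1 without treated library 2) rose and 8 fell, and their median change was -0.08. The feedback inhibitors of the ERK pathway SPRY4, DUSP6 and DUSP5 fell. DUSP6, an ERK phosphatase, stood at 273, 275 and 291 CPM without and 213, 217 and 218 CPM with palmitic acid, a change of -0.37 (SE 0.04, adjusted p = 1.29e-06), and 40.5% of its exonic bases overlap another annotated gene. SPRY4 fell by 0.39 (SE 0.04, adjusted p = 7.60e-07) and DUSP5 by 0.35 (SE 0.05, adjusted p = 3.04e-05). ERRFI1, an inhibitor of the EGF receptor, rose by 0.47 (SE 0.03, adjusted p = 3.43e-09). In the list of growth factors and receptors, 5 of 33 tested genes rose and 11 fell (48.5% called), and the median of the 33 changes was -0.14. The EGF-type ligand TGFA rose by 0.64 (SE 0.07, adjusted p = 2.54e-06), while NRG1 fell by 0.49 (SE 0.06, adjusted p = 2.57e-05), the receptor IGF1R by 0.45 (SE 0.05, adjusted p = 1.91e-06) and FGF1 by 0.94 (SE 0.22, adjusted p = 0.00560). DUSP4 fell by 0.19 and the ephrin receptor EPHA4 by 0.67 (SE 0.12, adjusted p = 5.29e-04).

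Palmitic acid raised 5 and lowered 6 of the 26 tested genes of the immediate early and KLF list, whose median change was -0.01. Calls made up 42.3% of the 26, against 20.4% of all tested genes. KLF10, a TGF-beta-inducible repressor, stood at 56.3, 55.1 and 50.5 CPM without and 80.7, 80.2 and 81.0 CPM with palmitic acid, a rise of 0.58 (SE 0.05, adjusted p = 5.49e-07). MYC, the growth-promoting transcription factor, stood at 228, 221 and 233 CPM without and 183, 182 and 181 CPM with palmitic acid, a fall of 0.32 (SE 0.04, adjusted p = 8.20e-06). The treated libraries of KLF10 were all higher and those of MYC all lower than the untreated ones. IER5 fell by 0.39, and KLF6 rose by 0.25. EGR1, an early gene of ERK signalling, rose by 0.30 (SE 0.05, adjusted p = 6.86e-04). Across the 12 libraries its responses were 0.31 in knockdown and 1.31 in control cells, an interaction of -1.01 (SE 0.07, adjusted p = 5.96e-09). The MAPK phosphatase DUSP1 had responses of 0.17 and 1.55 (interaction -1.38, SE 0.06, adjusted p = 3.84e-12), and its rise within the knockdown cells (0.16) was lost without untreated library 2 or treated library 2 or 3 (adjusted p up to 0.0641).

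YAP and TGF-beta are pathways of mechanical tension and of mesenchymal differentiation. Among targets of YAP and genes of the TGF-beta pathway, nearly all called changes were falls. The TGF-beta list holds ligand, receptor and inhibitor genes besides targets, and the TGF-beta-inducible KLF10, on another list, rose. Of the 28 tested genes of the YAP and TEAD list, 1 (0 without any 1 library other than untreated library 2 or treated library 3) rose and 11 fell, around a median change of -0.09. That is 42.9% called, against 20.4% of all tested genes. ANKRD1, a YAP target of muscle and cancer cells, stood at 195, 207 and 199 CPM without and 153, 153 and 141 CPM with palmitic acid, a change of -0.43 (SE 0.04, adjusted p = 1.91e-06). MYOF, a membrane repair protein, fell by 0.25, AJUBA by 0.37, NT5E by 0.18 and TGFB2 by 0.49. Among 27 tested members of the TGF-beta list, 0 rose and 8 fell (29.6% called), with a median change of -0.20 over all 27. INHBB, the activin B subunit, stood at 22.9, 22.2 and 22.3 CPM without and 11.4, 12.5 and 12.9 CPM with palmitic acid. FST (follistatin), the extracellular activin inhibitor, stood at 24.4, 25.7 and 27.8 CPM without and 18.9, 15.3 and 16.7 CPM with palmitic acid. Neither overlapped, and the changes were -0.88 (SE 0.09, adjusted p = 1.47e-06) and -0.61 (SE 0.09, adjusted p = 1.05e-04). The SMAD target ID3 fell by 0.35, the co-receptor TGFBR3 by 0.37 and the decoy receptor BAMBI by 0.60. With all 12 libraries in the model FST stood at -0.60 in knockdown and 0.44 in control cells (interaction -1.04, SE 0.15, adjusted p = 7.77e-05) and ID3 by -0.34 and 0.22 (interaction -0.56, SE 0.07, adjusted p = 1.30e-05), whereas INHBB stood at -0.87 and -0.86 (interaction -0.01, SE 0.13, adjusted p = 0.980). GADD45B, a stress gene responsive to TGF-beta, fell by 0.41 (SE 0.07, adjusted p = 4.17e-04).

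Mesenchymal and matrix genes moved in both directions. The mesenchymal and matrix list had 63 tested members, of which 14 rose and 17 fell, and their median change was -0.08. Calls made up 49.2% of the 63, against 20.4% of all tested genes. ITGA3, a laminin-binding integrin chain, stood at 183, 181 and 184 CPM without and 277, 281 and 297 CPM with palmitic acid. S100A4, a calcium-binding protein associated with metastasis, stood at 5.12, 5.39 and 6.06 CPM without and 2.48, 2.15 and 2.19 CPM with palmitic acid. The groups were apart for both genes, and the changes were 0.64 (SE 0.04, adjusted p = 1.53e-09) and -1.27 (SE 0.19, adjusted p = 1.09e-04). ITGAV rose by 0.44 (SE 0.06, adjusted p = 3.76e-05) and tenascin C (TNC) by 0.33 (SE 0.05, adjusted p = 2.78e-04). Fibronectin (FN1) fell by 0.48 (SE 0.06, adjusted p = 3.42e-05), the EMT factor SNAI2 by 0.67 (SE 0.13, adjusted p = 0.00174) and cadherin 11 (CDH11) by 0.57 (SE 0.06, adjusted p = 1.02e-06). In the 12-library fit the median of the list was -0.08 in knockdown and -0.23 in control cells, and 26 members responded more positively and 3 less positively in knockdown cells, where 14.5% of all tested genes passed the interaction test. ITGA3 stood at 0.65 in knockdown and -0.26 in control cells (interaction 0.91, SE 0.05, adjusted p = 3.49e-11), TNC stood at 0.34 and -0.29 (interaction 0.63, SE 0.06, adjusted p = 5.65e-07) and ITGB4 stood at -0.36 and -1.29 (interaction 0.93, SE 0.09, adjusted p = 6.97e-07). S100A4 stood at -1.26 and -1.21 (interaction -0.06, SE 0.21, adjusted p = 0.905). Thrombospondin 1 (THBS1) fell by 0.37 (SE 0.04, adjusted p = 2.75e-06). The matrix genes TGFBI, at 0.27, and COL4A1, at 0.26, were called in opposite direction to the collagen gene COL5A2, at -0.71. TGFBI was not called without untreated library 1 (adjusted p up to 0.0535), COL4A1 not without untreated library 2 or treated library 1 (adjusted p up to 0.0645) and COL5A2 not without untreated library 1 or 3 or treated library 3 (adjusted p up to 0.0904).

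In the list of MDA-MB-231 lung metastasis genes, 5 of 15 tested genes rose and 3 fell. This list had a median change of 0.13 and 53.3% called, against 20.4% of all tested genes. Its rises were ANGPTL4, PTGS2, TNC, EPHX1 and the kynurenine enzyme KYNU, at 0.62 (SE 0.08, adjusted p = 3.21e-05), and one of its 3 falls was the actin bundler FSCN1, at -0.29 (SE 0.05, adjusted p = 3.94e-04). Palmitic acid raised 3 and lowered 5 of the 17 tested genes of the circadian clock list (47.1% called), whose median change was -0.06. BHLHE40, a repressor that is also a hypoxia target, stood at 21.5, 20.8 and 20.9 CPM without and 35.7, 35.0 and 39.5 CPM with palmitic acid, a rise of 0.80 (SE 0.07, adjusted p = 4.72e-07). PER2, a core repressor of the clock, stood at 5.80, 5.09 and 6.22 CPM without and 2.58, 2.91 and 2.35 CPM with palmitic acid, a change of -1.13 (SE 0.18, adjusted p = 2.91e-04). TEF, an output factor, fell by 0.97 (SE 0.15, adjusted p = 1.53e-04). BHLHE40 responded in opposite directions in the 12-library fit, by 0.81 in knockdown and -0.34 in control cells (interaction 1.14, SE 0.08, adjusted p = 1.76e-09). PER1 fell by 0.59 (SE 0.12, adjusted p = 0.00134) and the repressor NR1D1 (REV-ERB-alpha) by 0.55 (SE 0.10, adjusted p = 0.00104), while the activator NPAS2 rose by 0.28.

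**Figure D3:**
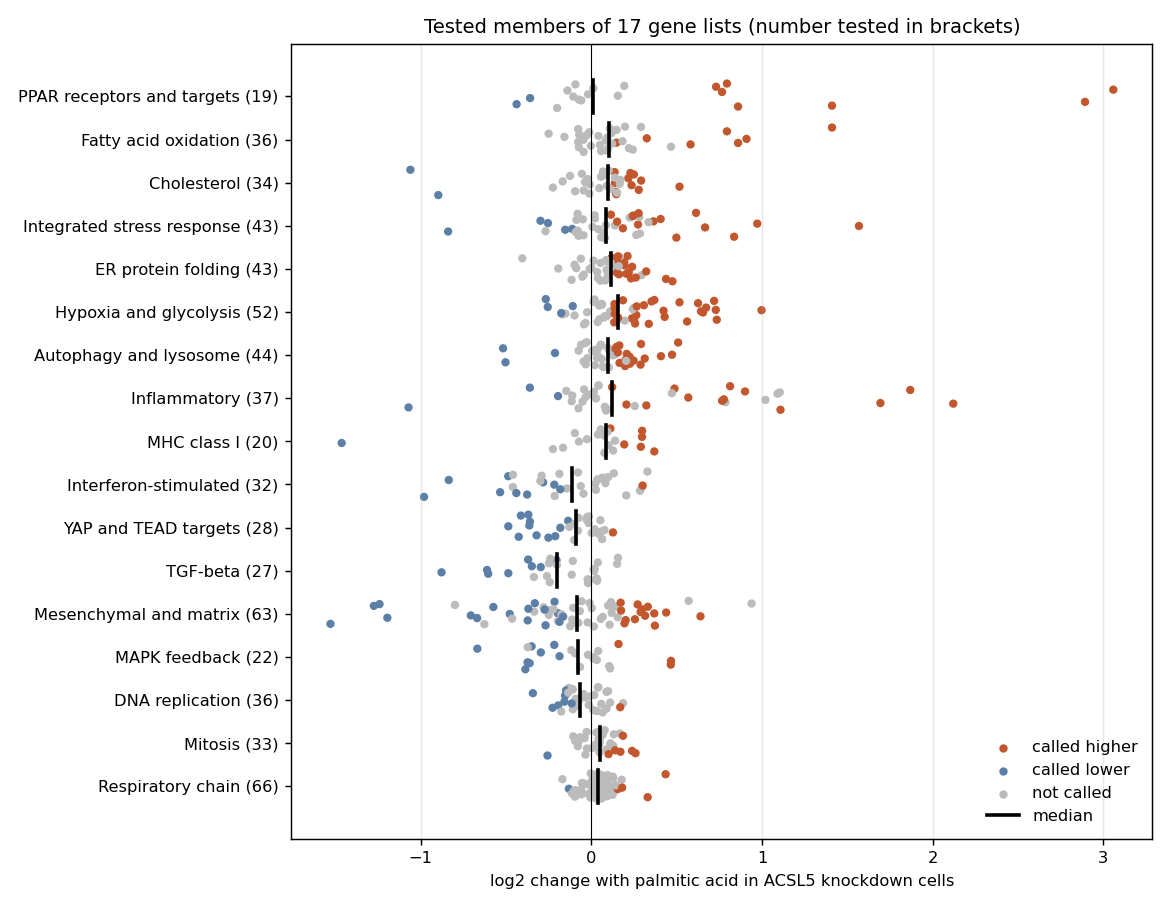
Change with palmitic acid (log2, horizontal axis) of each tested member of 17 gene lists (rows), as 1 point a gene coloured by whether it was called higher, lower or not called, with a bar at the list's median. The fatty acid oxidation, ER folding and TGF-beta rows hold called genes on 1 side of 0 only, and the matrix row holds 14 rises and 17 falls.

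Genes of DNA replication and mitosis moved by small amounts, while brakes of the cell cycle went both ways. CDKN1A (p21), the inhibitor of cyclin-dependent kinases, stood at 24.4, 20.0 and 22.9 CPM without and 40.3, 40.3 and 38.3 CPM with palmitic acid, a rise of 0.82 (SE 0.08, adjusted p = 6.10e-07). CDC25A, the phosphatase that releases those kinases, stood at 94.5, 93.0 and 91.8 CPM without and 70.2, 71.3 and 79.0 CPM with palmitic acid, a change of -0.34 (SE 0.05, adjusted p = 1.44e-04). Neither overlapped between the groups. Of the 26 tested genes of the list of cell cycle brakes and apoptosis, 7 (3 without untreated library 1 or treated library 2) rose and 8 fell (57.7% called), around a median change of -0.04. CDKN1B (p27) fell by 0.54 (SE 0.06, adjusted p = 2.72e-06) and the pro-death BCL2L11 (BIM) by 0.43 (SE 0.08, adjusted p = 8.04e-04), while GADD45A rose by 0.35. Among 36 tested members of the DNA replication list, 1 (2 without treated library 1) rose and 7 (4 without untreated library 1 or treated library 1) fell, with a median change of -0.07 over all 36. Its called share, 22.2%, was close to the 20.4% of all tested genes. GINS2 of the replicative helicase fell by 0.23 and the flap nuclease FEN1 by 0.16. The mitosis list had 33 tested members, of which 6 (2 without untreated library 1) rose and 1 (2 without treated library 3) fell, and their median change was 0.05. At 21.2%, the share called in this list was also close to that of all tested genes. CDK1 rose by 0.24 (SE 0.04, adjusted p = 8.87e-04), and KIF20A fell by 0.26. Across the 12 libraries the median of the replication list was -0.06 in knockdown and 0.12 in control cells. In the interaction test, passed by 14.5% of all tested genes, 16 genes of the list were less and 0 more positive in knockdown cells. CDKN1A stood at 0.82 in knockdown and 0.25 in control cells (interaction 0.57, SE 0.09, adjusted p = 1.46e-04). The ribonucleotide reductase subunit RRM2 rose by 0.17, with 22.7% of its sequence shared with other transcripts. The kinesin KIF2C rose by 0.19, the antiproliferative BTG1 rose by 0.26, and CDKN2C (p18) fell by 0.28. MCM5 was called at -0.15, but not without untreated library 1 or 3 or treated library 1 (adjusted p up to 0.117), UBE2C at 0.14, but not without untreated library 1 or treated library 2 or 3 (adjusted p up to 0.0808), HMMR at 0.26, but not without untreated library 1 or 2 or treated library 1 (adjusted p up to 0.0772), and KIF4A at 0.17, but not without untreated library 1 (adjusted p up to 0.0728).

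The response was then compared with that of control cells in 1 model of all 12 libraries, whose interaction term is the palmitate response in knockdown minus that in control cells. Of 14706 tested genes, 2139 (14.5%) responded differently, 1052 more positively and 1087 less positively in knockdown cells, and 111 differed at least 2-fold. With scaling by library sizes alone the split was 1332 and 892. In this fit palmitic acid raised 1778 genes (12.1%) in knockdown and 2227 (15.1%) in control cells, and 657 rose in both, which is 37.0% of the former and 29.5% of the latter. It lowered 1438 (9.78%) and 1990 (13.5%), of which 649 fell in both (45.1% and 32.6%). The response of 602 genes that rose in knockdown cells (33.9%) passed the interaction test, 532 of them with the more positive and 70 with the less positive response in knockdown cells. Of the genes that fell, 401 (27.9%) passed it, 358 with the more negative and 43 with the less negative response in knockdown cells. Both sets were chosen by their change in the knockdown libraries, which the interaction uses again. The splits were thus tilted in advance and say nothing about a stronger response in knockdown cells. In 115 genes a rise in knockdown cells went with a fall in control cells, and 111 genes fell in knockdown and rose in control cells.

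ESM1 was an example of the last kind. Its levels were 0.366 ± 0.0907 CPM in shControl, 0.810 ± 0.185 in shControl_PA, 10.2 ± 0.452 in shACSL5 and 3.13 ± 0.175 in shACSL5_PA, so it rose with palmitic acid in control cells, by 1.13, and fell in knockdown cells, by 1.71 (interaction -2.84, SE 0.37, adjusted p = 1.67e-05). CXCL8 stood at 1.69 ± 0.428 CPM in shControl, 29.2 ± 1.12 in shControl_PA, 3.18 ± 0.152 in shACSL5 and 11.7 ± 1.39 in shACSL5_PA. It rose in both cell types and far more in control cells. DUSP1 stood at 36.7 ± 2.01 CPM in shControl, 107 ± 1.74 in shControl_PA, 93.7 ± 2.05 in shACSL5 and 105 ± 2.49 in shACSL5_PA. The response of DUSP1 in knockdown cells was 0.17, against 1.55. At the other end, DSP stood at 64.6 ± 1.90 CPM in shControl, 65.5 ± 5.51 in shControl_PA, 21.9 ± 1.26 in shACSL5 and 54.3 ± 1.28 in shACSL5_PA, with an interaction of 1.29 (SE 0.09, adjusted p = 1.76e-09), and the actin bundler LCP1 at 15.0 ± 0.988 CPM in shControl, 12.6 ± 0.459 in shControl_PA, 9.57 ± 1.71 in shACSL5 and 20.4 ± 0.876 in shACSL5_PA (interaction 1.35, SE 0.15, adjusted p = 2.67e-06). DSP rose in knockdown cells by 1.32 and stood at 0.02 in control cells. The cytoskeletal adaptor DPYSL3 had an interaction of 1.70 (SE 0.18, adjusted p = 1.42e-06), the membrane protein IGSF1 of 1.31 (SE 0.22, adjusted p = 3.74e-04), the SRC-binding adaptor AFAP1L2 of 1.68 (SE 0.33, adjusted p = 0.00134) and the chromatin gene SETBP1 of 1.35 (SE 0.26, adjusted p = 9.85e-04). SETBP1 itself did not pass the test within the knockdown cells (0.04, SE 0.20, adjusted p = 0.921). IGSF1 did not pass it either, under any alternative (0.02 to 0.17). AFAP1L2 did not pass the 6-library test and was negative in knockdown cells under every alternative (-1.09 to -0.48). It was called lower there in the fit over all 12 libraries, so its positive interaction does not stand for a rise. Genes of cytosolic ribosomal proteins, building blocks of the ribosome whose many pseudogene copies make their counts uncertain, also differed: 59 of 82 responded less positively in knockdown cells, with a median of 0.04 against 0.22 in control cells. Of all tested genes, 14.5% passed the interaction test.

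**Figure D4:**
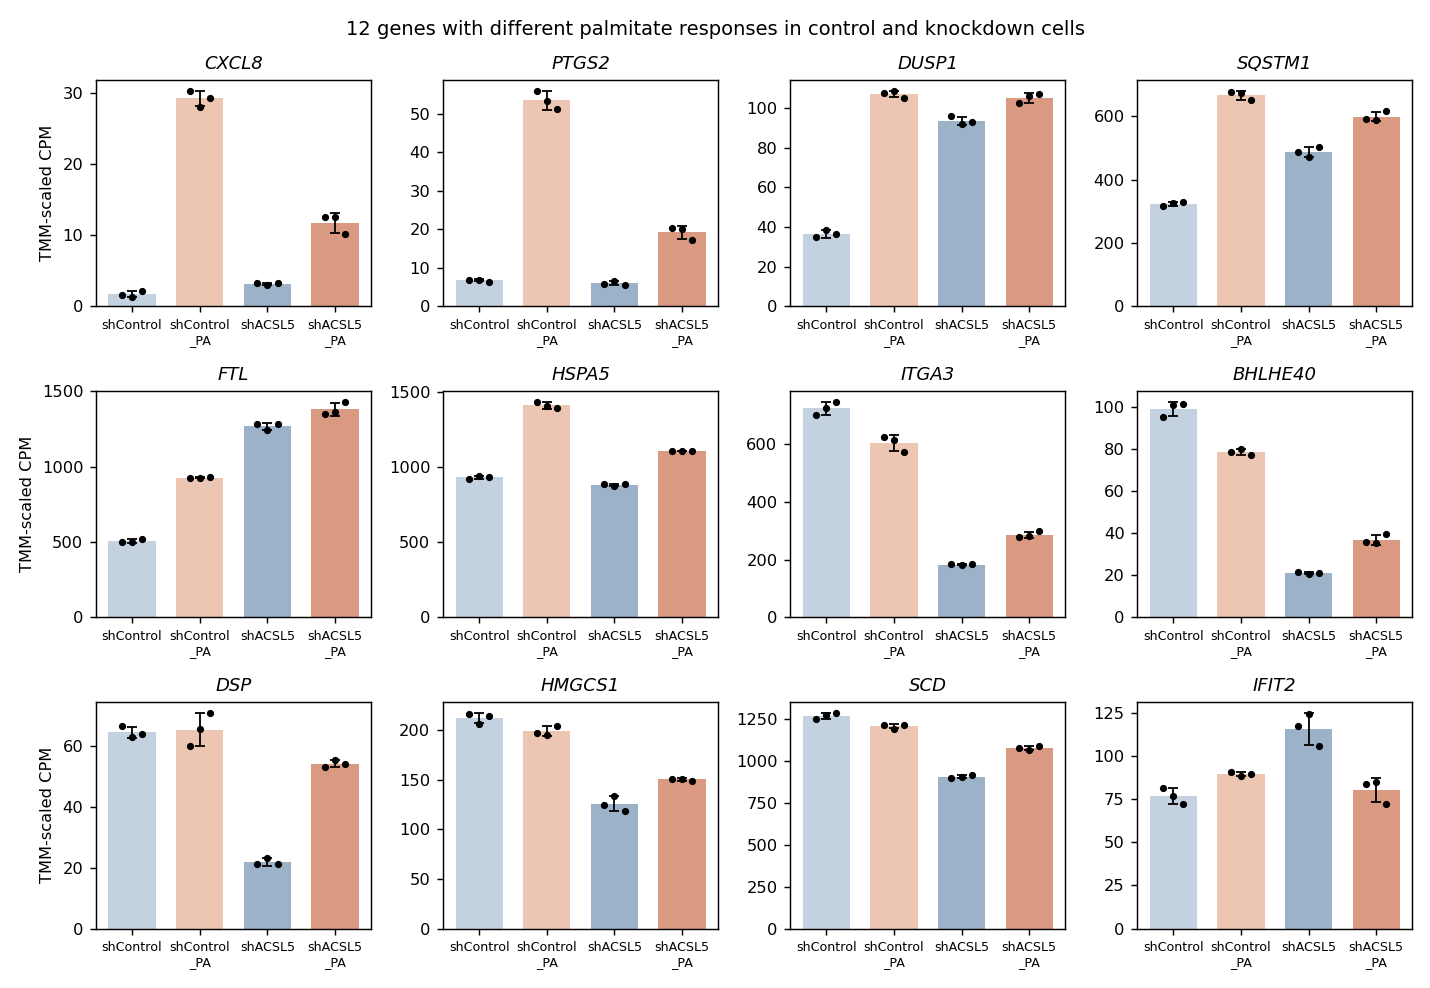
Level of 12 genes in all 4 groups (TMM-scaled CPM from the 12-library scaling, linear axes from 0); bars are means of 3 libraries, error bars the SD and points the libraries. CXCL8, PTGS2, DUSP1, SQSTM1 and FTL rise mainly in the control pair, while ITGA3, BHLHE40 and DSP are higher with palmitic acid in the knockdown pair.

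**Figure D5:**
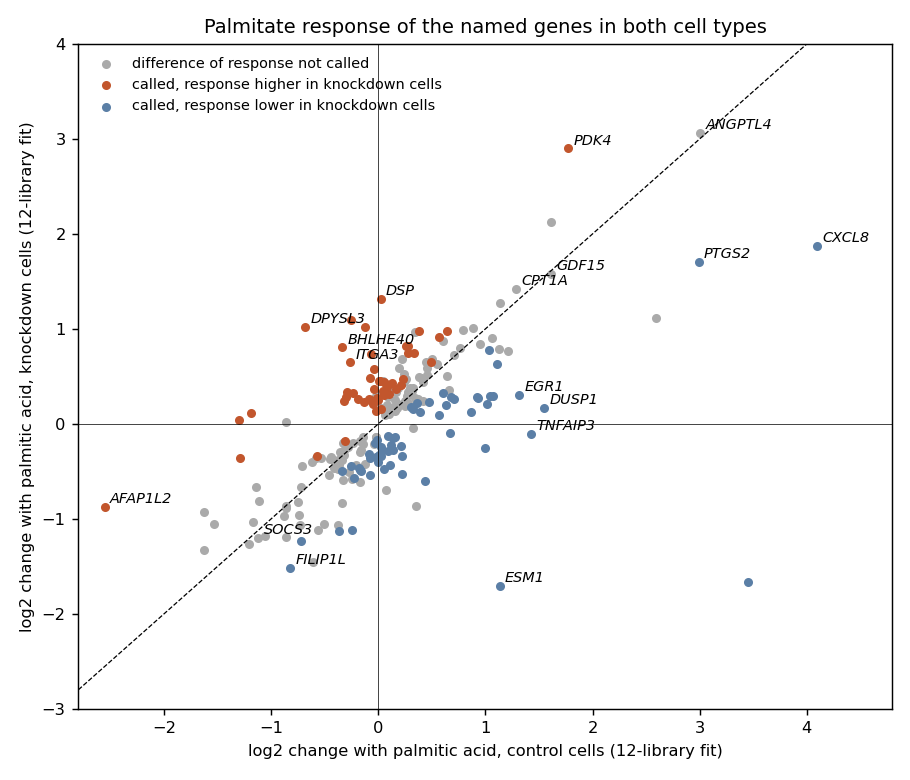
Change with palmitic acid in control cells (log2, horizontal axis) against that in knockdown cells (vertical axis), both from the 12-library fit, for 240 named genes, with filled colours for genes whose responses differed by the interaction test and a dashed line where the responses are equal. ANGPTL4 and CPT1A lie near the line, CXCL8, PTGS2, DUSP1 and ESM1 below it, and DSP and BHLHE40 above it.

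Markers of the line and of other cell types were read in the same libraries. The 8 genes that mark LM3 as a mesenchymal line, among them VIM, CD44, EGFR and AXL, summed to 6368 to 6536 CPM without and 6155 to 6435 CPM with palmitic acid, and of the 8, 2 rose (PLAU and MSN) and 4 fell (S100A4, CAV1, CD44 and EGFR). The oestrogen receptor and E-cadherin markers of luminal breast cells, ESR1, PGR and CDH1, were near 0, and the luminal list, carried by the keratins KRT8 and KRT18, summed to 406 to 442 CPM without and 403 to 441 CPM with palmitic acid. Lung epithelial markers summed to 37.5 to 38.2 CPM without and 26.3 to 28.6 CPM with palmitic acid, carried by NKX2-1, with 5 of 8 genes at 0 in all 6 libraries. Fibroblast markers summed to 25.9 to 30.1 CPM without and 18.2 to 19.2 CPM with palmitic acid, with 4 of 8 at 0 and the value carried by PDGFRB and COL1A1. PDGFRB fell by 0.82 (SE 0.11, adjusted p = 3.78e-05) and NKX2-1 by 0.47 (SE 0.07, adjusted p = 7.55e-05). Immune markers, carried by CD68, summed to 48.0 to 53.4 CPM without and 45.1 to 53.8 CPM with palmitic acid, with 3 of 10 at 0, and endothelial markers to 39.1 to 46.0 CPM without and 33.9 to 35.8 CPM with palmitic acid, with 1 of 7 at 0. The part of these markers in the changes of the matrix and growth factor genes was not tested. With 3 against 3 libraries the exact 2-sided permutation test of such a sum cannot give less than p = 0.1. Among the carriers of the other sums, ESAM fell by 0.30 (SE 0.07, adjusted p = 0.00408) and the keratin gene KRT19 by 0.41 (SE 0.08, adjusted p = 0.00210).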

How the data were processed

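RNA was read in 12 libraries of the established line LM3, 3 in each of 4 groups, and the 6 libraries of ACSL5 knockdown cells form the main comparison. The deposited table holds raw read counts per gene, which the authors made from polyA-selected RNA with fastp 0.22.0, HISAT2 2.1.0 and featureCounts on GRCh38, per the labels' protocols and the submitters' processing notes. Neither source names the annotation release or the strand setting. No library holds a count for a mitochondrially encoded gene, so these genes were not analysed here.

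The counts were tested as deposited with edgeR 4.0.16 (R 4.3.3): filterByExpr, TMM scaling, and the quasi-likelihood test of shACSL5_PA against shACSL5 in the 6 libraries, with Benjamini-Hochberg adjustment over all 14199 genes tested. Calls needed an adjusted p under 0.05, and the standard error is the size of the log2 change over the square root of F. The difference from control cells is the interaction term of 1 edgeR model over all 12 libraries and 14706 genes. The procedure was tested on simulated data. Totals of 16788694 to 21814751 counts set the precision. Alternatives were scaling by library sizes alone or by RLE factors, DESeq2 1.42.0, limma voom (limma 3.58.1), no low-count filter, a minimum mean CPM of 5, the replicate number as a block, 1 fit over all 12 libraries, and leaving out each library.

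The 38 gene lists and the members described were chosen with earlier results of these data known. By the rule 185 genes were named: the ACSL family, the 12 largest rises and 12 largest falls of called genes with an approved symbol, without overlap and at a mean of at least 5 CPM, up to 5 called members of each list by p, a fixed set of lipid, stress and signalling genes, and the 6 highest and 6 lowest interactions. A further 56 list members were added after their values were seen. Some genes that the rule selects are not reported here, though the counts of lists and of all genes include them. Promoter windows come from RefSeq (GRCh38.p14) and matched 10562 of the tested genes by symbol. Overlap of exons on either strand and shared 31-base sequences were computed on GENCODE 29, and genes with at least 20% of either are uncertain, among those described also CA9, SFTA3, PLAU, PYCR1, HLA-F, IL6, HSD17B12, CXCL2, PDIA3, KIF4A, UQCRH, TGFB2 and ATF4.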

Additional observations from a re-analysis of the deposited data

Results flagged for a closer look

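Of the named genes, 111 passed the interaction test of the 12-library fit: their response to palmitic acid, on the log2 scale, differed between knockdown and control cells. Each value below is the response in knockdown minus that in control cells, with 3 libraries in each of the 4 groups.

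Among fatty acid and lipid genes the difference was positive for PDK4 1.13, ACSS2 0.57, VLDLR 0.46, LPIN3 0.44, ASAH1 0.41, ACAA2 0.35, SCD 0.32, LIPA 0.31, SPTSSA 0.30, ME1 0.30, ACSL3 0.29, GPAT4 0.21 and ACLY 0.14, and negative for TXNIP -0.77 and PLIN2 -0.26. For cholesterol genes it was positive for MSMO1 0.56, FDFT1 0.35, HMGCS1 0.35 and IDI1 0.25. In the group of stress response and protein folding genes, values were negative for DDIT3 -0.78, ATF3 -0.66, PPP1R15A -0.64, HERPUD1 -0.43, SLC3A2 -0.39, PYCR1 -0.38, HSPA5 -0.27, P4HB -0.26, HSPD1 -0.24 and HSPA1B -0.17, and positive for DDIT4 0.34 and ASNS 0.20. Of the antioxidant, iron and metal genes, the difference was negative for FTL -0.74, TXNRD1 -0.47, FTH1 -0.45, KEAP1 -0.45, STEAP3 -0.34 and TFRC -0.14, and positive for MT2A 0.20. Among inflammatory and interferon genes the difference was negative for CXCL8 -2.22, TNFAIP3 -1.53, PTGS2 -1.29, NFKBIA -0.80, IFIT2 -0.75, OASL -0.54, IFIT1 -0.53, IFIT3 -0.42 and CSF1 -0.33, and positive for CD83 0.62 and IL11 0.55.

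For early response, MAPK and growth factor genes it was negative for ESM1 -2.84, DUSP1 -1.38, ADM -1.25, EGR1 -1.01, NRG1 -0.31, MYC -0.23 and IGF1R -0.19, and positive for KLF6 0.26, ERRFI1 0.24, DUSP5 0.23 and DUSP4 0.13. In the group of matrix, YAP, TGF-beta and metastasis genes, values were negative for FST -1.04, FILIP1L -0.70, ID3 -0.56, FOXQ1 -0.51, KYNU -0.48, GADD45B -0.40, CDH11 -0.33, FSCN1 -0.32, AJUBA -0.28 and NT5E -0.16, and positive for ITGB4 0.93, ITGA3 0.91, TNC 0.63, TGFBI 0.58, COL4A1 0.45 and ITGAV 0.43. Of the hypoxia, respiration and autophagy genes, the difference was positive for EPAS1 0.80, TAX1BP1 0.56, ENO2 0.41, COX5A 0.39, MAP1LC3B 0.34, OPTN 0.27, LAMP2 0.26 and BNIP3 0.16, and negative for SQSTM1 -0.75, MITF -0.33 and CYC1 -0.21. Among cell cycle and clock genes the difference was negative for NR1D1 -0.46, CDC25A -0.36, GINS2 -0.34, MCM5 -0.30, FEN1 -0.29, KIF20A -0.28 and RRM2 -0.13, and positive for BHLHE40 1.14 and CDKN1A 0.57. For cell type markers it was negative for NKX2-1 -0.28, CD44 -0.17 and CAV1 -0.16, and positive for MSN 0.15. Genes on no list had a difference of DPYSL3 1.70, AFAP1L2 1.68, LCP1 1.35, SETBP1 1.35, IGSF1 1.31, DSP 1.29, NELL2 1.14, DLEU2 0.60, ATOH8 -0.76, SFTA3 -0.87 and RIOX1 -5.11.

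Some of these differences were no longer called under an alternative. The call of DLEU2 was lost without library shControl 1 (adjusted p up to 0.0551). RIOX1 lost its call with DESeq2 (adjusted p up to 0.0955). The call of FILIP1L was lost without any 1 library other than shControl_PA 2, shACSL5 2 or shACSL5_PA 2 or 3, or with limma voom or with no low-count filter (adjusted p up to 0.130). PLIN2 lost its call without library shControl 1 (adjusted p up to 0.0541). The call of GPAT4 was lost without any 1 library other than shControl 1 or 3, shACSL5 3 or shACSL5_PA 3, or with RLE size factors or with DESeq2 (adjusted p up to 0.136). TFRC lost its call without library shControl 3, shControl_PA 1 or 2, shACSL5 1 or 2 or shACSL5_PA 3, or with scaling by library sizes alone (adjusted p up to 0.0866). The call of DUSP4 was lost without library shControl 2 or 3 or shControl_PA 2 (adjusted p up to 0.0628). IGF1R lost its call without any 1 library other than shACSL5 2 or shACSL5_PA 3, or with scaling by library sizes alone or with no low-count filter (adjusted p up to 0.128). The call of NRG1 was lost without any 1 library other than shControl 2, shControl_PA 3, shACSL5 2 or 3 or shACSL5_PA 1 (adjusted p up to 0.0980). BNIP3 lost its call without any 1 library other than shACSL5 2 or 3, or with RLE size factors or with DESeq2 or with no low-count filter (adjusted p up to 0.147). The call of RRM2 was lost without any 1 library other than shControl 3, shControl_PA 2, shACSL5 1 or shACSL5_PA 3, or with scaling by library sizes alone or with no low-count filter (adjusted p up to 0.0949). NR1D1 lost its call without any 1 library other than shControl 1, shControl_PA 3, shACSL5 2 or shACSL5_PA 2 or 3 (adjusted p up to 0.104). The call of ME1 was lost without any 1 library other than shControl 2, shControl_PA 3, shACSL5 1 or shACSL5_PA 1, or with DESeq2 (adjusted p up to 0.117). LPIN3 lost its call without library shControl 2 (adjusted p up to 0.0541). The call of CD83 was lost without any 1 library other than shControl 2, shControl_PA 3, shACSL5 1 or shACSL5_PA 1 (adjusted p up to 0.0818). NKX2-1 lost its call without any 1 library other than shControl 1, shControl_PA 3, shACSL5 2 or shACSL5_PA 1, or with scaling by library sizes alone or with no low-count filter (adjusted p up to 0.0987). The value of RIOX1 ranged from -11.79 to -3.91 over the alternatives, the lowest without library shControl 2.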

How the results depend on the processing

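The number of genes called with palmitic acid, 2893, was 2864 with library sizes alone, 2897 with RLE factors, 2539 with DESeq2, 2884 with limma voom, 3143 with no low-count filter, 2933 with a minimum mean CPM of 5 and 3216 in the fit over all 12 libraries. Leaving out 1 library at a time gave 1930 to 2662, of which 902 to 1289 were rises and 1024 to 1373 falls. The share of rises among the calls was 50.3%, and 44.0% with library sizes alone. The count of genes called with at least a 2-fold change, 132, was 65 with DESeq2, 220 with no low-count filter, 26 with the minimum mean CPM of 5, which tests fewer genes, and 119 to 148 with 1 library left out. For the difference from control cells the count of 2139 ranged from 2092 to 2320 under the other settings and from 1657 to 2138 without 1 library (787 to 1026 more positive, 870 to 1112 less positive), and the 111 differences of at least 2-fold became 199 with no filter, 35 with the minimum CPM and 90 to 113 without 1 library. The share of positive differences was 49.2%, and 59.9% with library sizes alone. The replicate numbers did not pair the libraries: the correlations of the deviations of same-numbered libraries were -0.078, 0.045 and 0.194, and treated libraries 1 and 2 correlated more with another number. With the replicate number as a block 3609 genes were called for palmitic acid and 2261 for the difference, ATF4, DDIT3 and AFAP1L2 gained a call for palmitic acid (adjusted p = 0.0141, 0.0409 and 0.0445, edgeR) and BCL2A1 lost it (adjusted p = 0.0529).

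Of 240 named genes tested, 196 kept direction and call under all alternatives, as did 95 of the 111 differences, and 45 of 76 counts of list members called higher or lower stayed within 1.5 times of their value. A change of sign was seen only in 3 genes that were not called. IL6, at 0.02, stood at -0.11 with limma voom, at -0.0047 with the block, and between -0.36 and 0.36 with 1 library left out. SETBP1, at 0.04, ranged from -0.11 to 0.24 with 1 library left out, and DNAJB9, at -0.05, reached 9.05e-04 without untreated library 1. The sum of the luminal markers was higher by 3.83 CPM with palmitic acid and differed by -1.04e-05 percent (treated minus untreated) as a share of the raw totals. The cause of these changes was not tested. Errors were wide where few reads were counted: IL6 at 0.534 CPM and CSF2 at 0.801 CPM had standard errors of 0.50 and 0.49.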
